A study of Mus musculus with 6 samples.

Results

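The 9 genes described here, Gnat1, Bfsp2, Chrm4, Cdon, Cacnb4, Ndnf, Defa22, Defa38 and Erfe, were grouped as genes of lineages other than T cells. Among these lineages are retina, lens, brain, small intestine and erythroid cells, but the grouping does not mean that T cells lack the genes. They were selected from the 16281 genes of the count table because their counts rose in CD8+ T cells treated with GSK2879552 (GSK), an inhibitor of the histone demethylase LSD1. Their rise is therefore given as a description, without a test. RNA was sequenced from 3 cultures that received 0.5 μM GSK and 3 that received vehicle (Veh). All 6 cultures came from splenic CD8+ T cells of OT1 mice, C57BL/6 animals with the transgene Tg(TcraTcrb)1100Mjb, which encodes a T-cell receptor for an ovalbumin peptide. The series' design text names lymph nodes as a source too. The cells were activated for 48 h with antibodies to CD3 and CD28 and then kept for another 3 days in IL-2. The study's text names 3 separate OT1 mice as the source of the cells, and its figure legend 3 mice per group. It does not say whether a GSK and a Veh culture with the same number shared a mouse. The main comparison treated the 6 cultures as unpaired. The age and sex of the mice are not given in the sources used here.

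LSD1, encoded by Kdm1a, removes methyl groups from lysine 4 of histone H3. It works in complexes with the corepressors of the CoREST family. REST brings such complexes to neuronal genes in non-neuronal cells, and GFI1 and INSM1 bring them to genes of other lineages. Tissue-specific genes are often transcribed at trace levels in cells that have no known use for them, so how low the counts were matters for each gene below.

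Total counts per sample lay between 18288447 and 19846720, and every GSK sample had a higher total than every Veh sample. Values below are raw counts, or CPM, the count divided by its sample's TMM-scaled total and expressed per 1000000 reads. Of the 16281 genes, 11698 passed edgeR's filter on low counts and were tested, and a call needed both an adjusted p below 0.05 and a change of more than 1.5-fold. All 13 genes of a CD8 T cell identity list were tested and 0 were called by edgeR or DESeq2. In edgeR, 10 had an unadjusted p under 0.05 with smaller folds, 5 of them higher. Several also passed the adjusted p. Among them were Cd3g (log2 fold change, GSK over Veh, -0.38, adjusted p = 6.0e-05), Cd5 (-0.50, adjusted p = 0.00115) and Thy1 (0.23, adjusted p = 2.0e-04). Summed over its list, the CPM of B cell markers was 33.4 to 34.5 in Veh and 27.7 to 39.4 in GSK. Over the 6 samples, 12 myeloid and dendritic markers summed to between 13.9 and 18.3 CPM. The ranges in Veh and GSK were 7.94 to 9.33 and 6.52 to 7.93 for 12 erythroid and megakaryocyte markers, and 79.9 to 89.7 in GSK against 90.9 to 97.3 in Veh for 11 stromal and epithelial markers. Single B cell markers moved both ways, with Cd22 higher (0.409 to 2.60 CPM), Cd74 higher (8.19 to 18.4 CPM) and H2-Ab1 lower (18.5 to 8.10 CPM). The part of other cell types in the results below was not tested. In RNA of whole cultures, a change in the number of cells that express a gene cannot be told apart from a change in RNA per cell.

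Most of the 9 genes were counted rarely. The mean count over the 6 samples was under 100 for 8 of them, from 15.3 for Bfsp2 to 96.5 for Erfe, and Cdon alone reached 1435. The median mean count was 631 over all genes tested and 167 over the genes called higher. Every one of the 9 already had reads in each Veh sample, so "derepressed" here describes a higher count and not a switch from 0. Per kilobase of exon, the Veh level of Gnat1 stood at the 2.32 percentile of tested genes, Ndnf at 4.31, Bfsp2 at 4.65, Cacnb4 at 5.76, Erfe at 17.7, Chrm4 at 25.5, Defa38 at 26.7, Defa22 at 35.7 and Cdon at 49.1. Thus even in the untreated cells the levels ran from the lowest tested genes to the middle of the range.

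All 9 genes passed the filter and were called higher, where 2.22% of tested genes were called higher and 4.09% lower. Among tested genes with a mean count of 10 to 100, the share called higher was 4.75%. The 3 GSK values lay above the 3 Veh values for each of the 9 genes, and did so for 23.7% of all tested genes. Since these samples chose the genes, nothing is read from these counts. The median log2 fold change (GSK over Veh) was 0.89 for the 9 genes and -0.0039 for all genes tested.

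**Figure D1:**
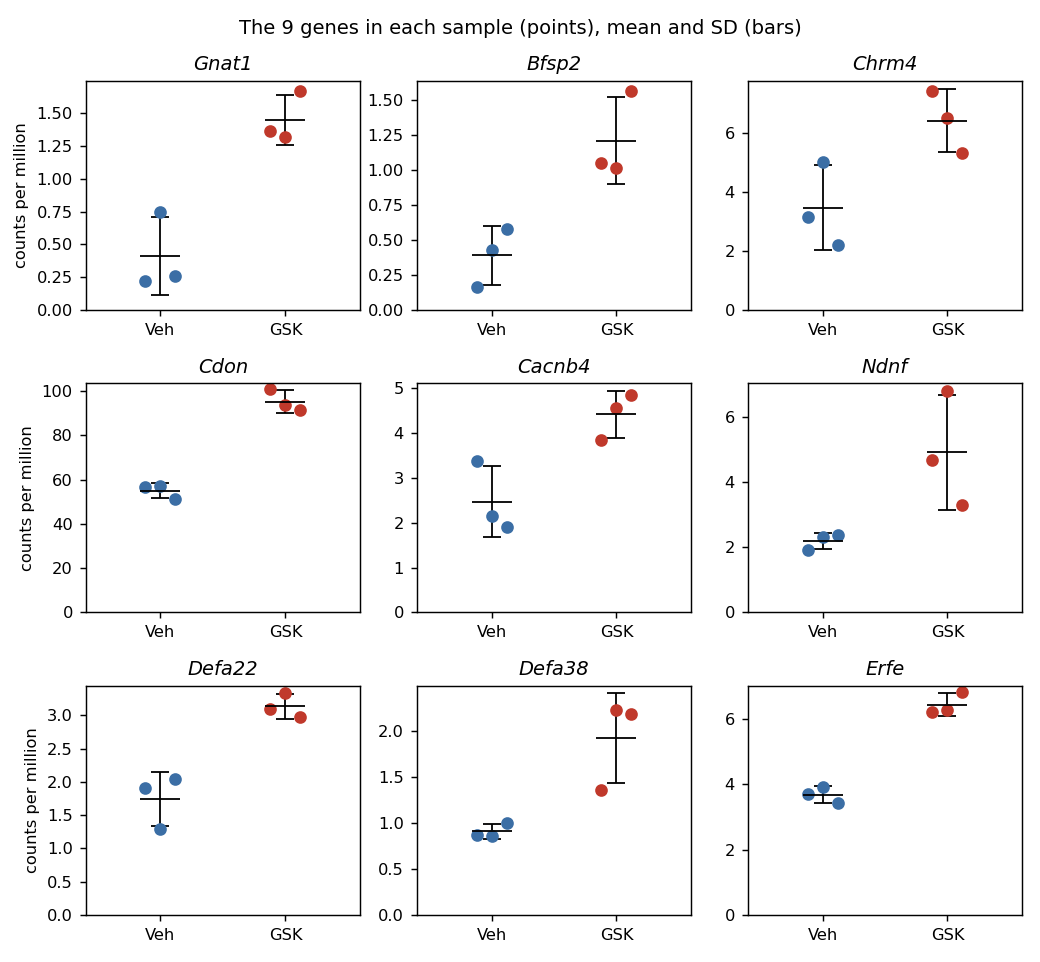
CPM of each of the 9 genes in the 3 Veh and 3 GSK samples, on a linear axis from 0 with its own scale in each panel. Points are samples, and bars give the mean and SD (n = 3). The GSK points lie above the Veh points in every panel, with the narrowest gap for Chrm4, where the lowest GSK value was 1.05 times the highest Veh value.

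The pair of eye genes had the fewest reads and the widest fold changes. Gnat1 encodes the alpha subunit of rod transducin, the G protein that passes the light signal on to the phosphodiesterase. It lies on chromosome 9 (GRCm38, chr9:107674437-107679634). Its counts were 4, 14 and 5 in Veh and 26, 26 and 32 in GSK. Veh replicate 2 held more reads than the other Veh samples together, and the GSK samples were close to each other. Gnat1 averaged 0.410 ± 0.296 CPM in Veh and 1.45 ± 0.191 in GSK (SD, n = 3), a log2 fold change of 1.80 ± 0.43 (SE). Without Veh replicate 2, its log2 fold change was 2.56. Bfsp2 encodes phakinin, a beaded filament protein of lens fibre cells, and lies on the same chromosome (chr9:103424924-103480405). It was counted 3, 8 and 11 times in Veh and 20, 20 and 30 times in GSK. GSK replicate 3 was the highest sample and Veh replicate 1 the lowest. The mean rose from 0.390 ± 0.210 to 1.21 ± 0.308 CPM, and the log2 fold change was 1.61 ± 0.44. Of the exon bases of Bfsp2, 11.8% are also exon of a long noncoding RNA on the opposite strand, and the strand setting of the counting is not given in the sources used here.

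Chrm4 and Cacnb4 stand for neuronal signalling. Chrm4 encodes the M4 muscarinic acetylcholine receptor (chr2:91922189-91929835). It received 58, 94 and 42 reads in Veh and 142, 129 and 102 in GSK. Veh replicate 2 nearly reached GSK replicate 3, and the spread within Veh was wide. The means were 3.47 ± 1.44 and 6.43 ± 1.07 CPM, with a log2 fold change of 0.89 ± 0.26. The annotated span of Chrm4 shares 31 bases with Mdk, which did not pass the test (log2 fold change -0.28, adjusted p = 0.36). Cacnb4 encodes a beta subunit of voltage-gated calcium channels, which helps bring the pore subunit to the membrane (chr2:52428320-52676609). Its reads numbered 62, 40 and 36 in Veh and 73, 90 and 93 in GSK. Veh replicate 1 stood above the other Veh samples and close to GSK replicate 1. The CPM went from 2.47 ± 0.792 to 4.41 ± 0.523, a log2 fold change of 0.84 ± 0.24, and 16.0% of its exon bases lie opposite a long noncoding RNA's exons.

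Cdon and Ndnf act in development. Cdon encodes a cell-surface coreceptor that binds hedgehog ligands (chr9:35421528-35507652). Its counts of 1043, 1067 and 973 in Veh and 1923, 1850 and 1752 in GSK were the only ones above 150 among the 9 genes. Both groups were tight and far apart. Cdon averaged 55.0 ± 3.39 CPM in Veh and 95.3 ± 5.02 in GSK, and its log2 fold change of 0.79 ± 0.06 was the smallest of the 9 and had the smallest SE. Ndnf encodes a secreted neuron-derived factor with fibronectin type III domains (chr6:65671611-65712323). It had 35, 43 and 45 reads in Veh and 89, 134 and 63 in GSK. The spread lay in GSK, where replicate 2 was more than 2 times replicate 3. Means of 2.19 ± 0.251 and 4.91 ± 1.76 CPM gave a log2 fold change of 1.16 ± 0.26.

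Erfe encodes erythroferrone, a hormone that erythroid precursors secrete to lower hepcidin and release iron (chr1:91366305-91374217). Its counts were 68, 73 and 65 in Veh and 118, 124 and 131 in GSK. The 3 samples of each group were close together, and relative to the mean each group's SD was the smallest among the 8 rarely counted genes. The means were 3.68 ± 0.251 and 6.43 ± 0.346 CPM, a log2 fold change of 0.81 ± 0.16. Ilkap shares 12.7% of the exon bases of Erfe on the opposite strand and stood at 63.3 ± 2.59 CPM in Veh and 63.4 ± 2.41 in GSK (log2 fold change 0.00, adjusted p = 0.97). The erythroid and megakaryocyte marker sum given above was lower in every GSK sample than in any Veh sample, but only just. GSK replicate 1 stood at 7.93 CPM and Veh replicate 3 at 7.94 CPM in that sum. Most of that sum was Gata1, an erythroid and megakaryocyte regulator with 121, 123 and 97 reads in Veh and 134, 130 and 88 in GSK (log2 fold change -0.0049, adjusted p = 0.99). Itga2b, a platelet integrin, fell from 1.98 to 0.931 CPM (log2 fold change -1.08, adjusted p = 0.020), and the other 10 markers in the table lay under the filter. The part of erythroid cells in the values of Erfe was not tested.

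Defa22 and Defa38 encode alpha-defensins, antimicrobial peptides that Paneth cells of the small intestine release from granules. Both lie in the defensin cluster of chromosome 8 (chr8:21162277-21163249 and chr8:21094971-21096050). Some genes of this cluster are close copies of each other. The coding sequences of the pair are 62.7% identical, but each has a nearer relative, Defa21 for Defa22 (99.3%) and Defa29 for Defa38 (97.4%). The sequences below (GENCODE M21 transcripts, GRCm38) show how little separates each from that relative, with capitals at the bases that differ within each pair. Defa22 and Defa21 are given whole, Defa38 and Defa29 for their first 300 of 351 coding bases.
Defa22: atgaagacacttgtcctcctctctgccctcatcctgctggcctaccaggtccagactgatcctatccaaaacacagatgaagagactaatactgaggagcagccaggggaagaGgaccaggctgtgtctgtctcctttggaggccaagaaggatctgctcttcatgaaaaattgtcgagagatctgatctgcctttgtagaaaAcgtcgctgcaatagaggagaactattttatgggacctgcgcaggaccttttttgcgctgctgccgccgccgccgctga
Defa21: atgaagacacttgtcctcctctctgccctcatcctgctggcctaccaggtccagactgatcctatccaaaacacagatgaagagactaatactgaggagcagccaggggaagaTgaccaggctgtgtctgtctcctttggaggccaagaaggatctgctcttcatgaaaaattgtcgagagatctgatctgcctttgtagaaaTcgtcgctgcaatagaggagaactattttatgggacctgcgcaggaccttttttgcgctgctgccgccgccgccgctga
Defa38: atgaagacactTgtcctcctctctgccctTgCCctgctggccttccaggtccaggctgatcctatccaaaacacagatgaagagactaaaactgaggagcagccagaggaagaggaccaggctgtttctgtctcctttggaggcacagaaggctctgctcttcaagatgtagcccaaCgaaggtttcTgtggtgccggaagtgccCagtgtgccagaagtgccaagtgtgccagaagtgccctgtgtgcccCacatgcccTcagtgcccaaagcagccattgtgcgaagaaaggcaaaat
Defa29: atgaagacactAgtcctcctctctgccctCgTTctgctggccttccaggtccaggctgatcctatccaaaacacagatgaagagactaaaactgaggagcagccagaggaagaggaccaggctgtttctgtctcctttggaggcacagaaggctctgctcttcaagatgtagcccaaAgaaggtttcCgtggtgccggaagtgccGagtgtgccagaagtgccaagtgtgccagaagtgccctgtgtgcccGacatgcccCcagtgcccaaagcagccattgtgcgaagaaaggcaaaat
The first pair differs at 2 bases and the second at 9. Of 270 stretches of 150 bases in the Defa22 transcript, 29 (10.7%) occur unchanged in another gene's transcript. That gene is Defa21. Reads from such stretches have no unique place, and how they were counted is not given in the sources used here. For Defa38, 0 of 202 such stretches occur in another gene.

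Defa22 was counted 35, 24 and 39 times in Veh and 59, 66 and 57 times in GSK. GSK was even and Veh replicate 2 low. The means were 1.75 ± 0.405 and 3.14 ± 0.187 CPM (log2 fold change 0.84 ± 0.24). Defa38 was counted 16, 16 and 19 times in Veh and 26, 44 and 42 times in GSK. Here GSK replicate 1 stood below the other GSK samples, and Veh was even. Its means were 0.909 ± 0.0777 and 1.93 ± 0.487 CPM (log2 fold change 1.08 ± 0.31). The value of Defa22 is uncertain as that of a single gene, because of the stretches it shares with Defa21.

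**Figure D2:**
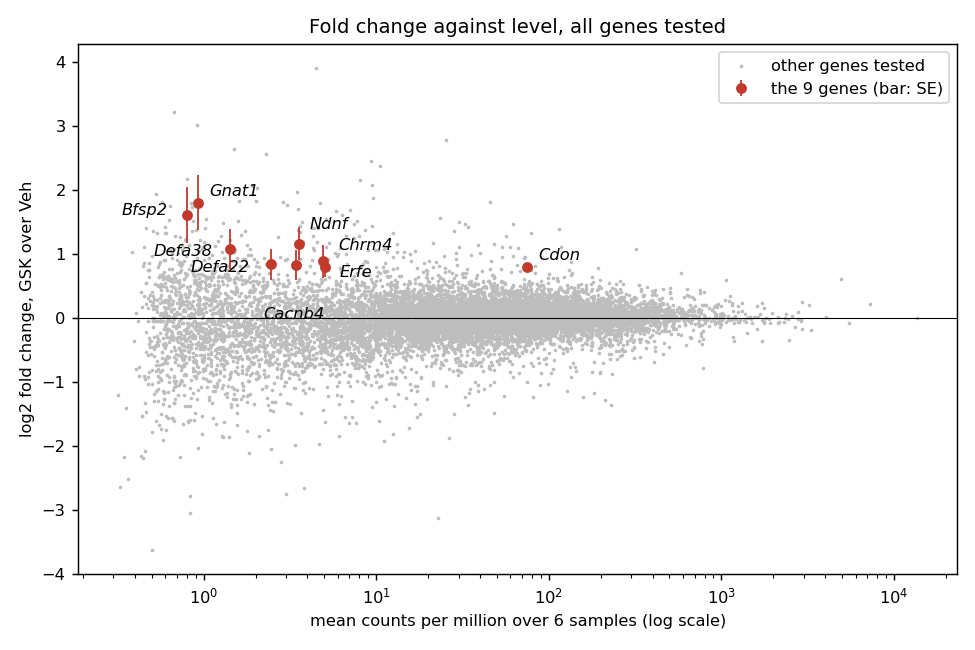
Log2 fold change (GSK over Veh) against the mean CPM over 6 samples, on a log axis, for the 11698 genes tested. The 9 genes are red with their SE. Gnat1 and Bfsp2 lie at the low end, where the spread of all genes is widest, and Cdon (log2 fold change 0.79) near the middle.

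The rest of the alpha-defensin family offered values that the selection had not used by name. The table held 22 Defa genes, of which 6 were tested, and besides Defa22 and Defa38 0 were called by edgeR, where 3 of the 4 others had an unadjusted p under 0.05. DESeq2 called 1 of the 4, Defa24. The other 4 tested genes all had positive log2 fold changes that did not pass the test, at 0.70 for Defa24 (adjusted p = 0.059), 0.50 for Defa21 (adjusted p = 0.10), 0.69 for Defa30 (adjusted p = 0.10) and 0.73 for Defa29 (adjusted p = 0.23). Summed over the 20 other Defa genes, the level was 7.83, 7.24 and 10.6 CPM in Veh and 13.1, 16.7 and 11.4 CPM in GSK. The groups did not overlap, and the means of 8.55 ± 1.77 and 13.7 ± 2.67 CPM (SD, n = 3) differed 1.61-fold. The two-sided exact permutation test gave p = 0.1, the smallest that 3 against 3 samples allow. As the family was chosen because Defa22 and Defa38 rose in these same samples, neither the sum nor its p is independent support for a rise. Defa20 alone put 43 reads into the sum of GSK replicate 2, against 5 and 2 in the other GSK samples. The raw summed count, not scaled to the higher GSK totals, was higher in GSK for 17 of the 20. The same share over all genes was not computed, so nothing is read from this number. Nor are the 20 separate observations, as some are identical in coding sequence, such as Defa17 and Defa3 or Defa36 and Defa37 (100%). Defa21 is among the 20, so the sum is not fully independent of Defa22.

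**Figure D3:**
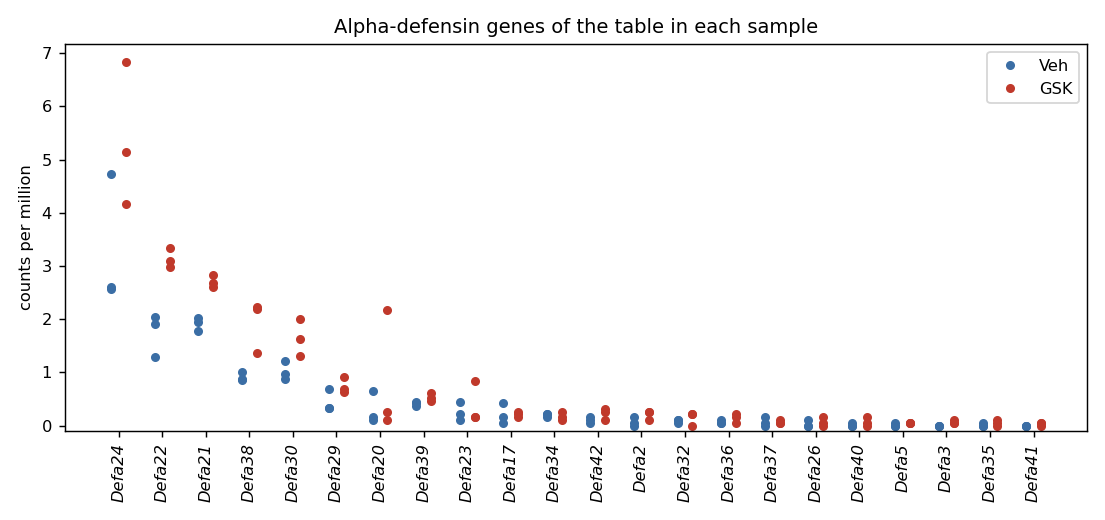
CPM of the 22 alpha-defensin genes in each sample, ordered by their mean, with Veh in blue and GSK in red (3 points each). Defa22, Defa38 and 4 others (Defa21, Defa30, Defa39 and Defa3) have all GSK points above all Veh points, while Defa24 overlaps. In Defa20, GSK replicate 2 alone stands high.

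Close relatives of the other genes did not pass the test or were not tested. Gnat2, the cone transducin subunit, had 5, 5 and 5 reads in Veh and 7, 10 and 4 in GSK. Bfsp1, the filament partner of Bfsp2, had 2, 2 and 0 against 0, 3 and 0. Among muscarinic receptors, Chrm3 averaged 0.968 CPM in Veh and 0.464 in GSK (log2 fold change -1.04, adjusted p = 0.12), and Chrm1 and Chrm2 stood below 0.1 CPM in both groups. Of the calcium channel beta subunits, Cacnb1 went from 6.32 to 4.26 CPM (log2 fold change -0.57, adjusted p = 0.077) and Cacnb3 from 13.3 to 11.0 CPM (log2 fold change -0.28, adjusted p = 0.13). Both had values of the opposite sign to Cacnb4. Boc, the other coreceptor of the Cdon family, was at 1, 1 and 1 reads in Veh and 1, 0 and 0 in GSK.

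Around the 9 genes, 11 lists of pathway and tissue genes held 266 other genes of the table. Of these, 111 were tested, 6 (5.41%) were called higher and 7 (6.31%) lower, and their median log2 fold change was -0.0043. Over all tested genes, 2.22% were called higher and 4.09% lower. Among tested genes with a mean count of 10 to 100, 4.75% were called higher. The counts of single lists below are to be read beside these shares. The remaining 155 of the 266 genes lay under the filter. Most of the list genes were thus counted too rarely to be tested.

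In phototransduction, 12 genes besides Gnat1 were tested, and Cnga1 and Rdh12 fell. Cnga1, a subunit of the rod cGMP-gated channel, fell from 6.28 to 3.60 CPM (log2 fold change -0.80, adjusted p = 0.0033). Rdh12, a retinol dehydrogenase of photoreceptors, fell from 8.23 to 3.57 CPM (log2 fold change -1.20, adjusted p = 9.1e-05). The median over the 12 was -0.093. Both of these genes thus changed in the direction opposite to Gnat1.

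Another 24 phototransduction genes lay under the filter. In 7 of them all GSK values were above all Veh values and in 0 below, against 2.75% above and 8.03% below among all 4583 genes under the filter. With all samples thinned at random to the smallest total, for the list an alternative chosen after seeing the data, the list gave 5 above and 0 below, and all genes under the filter 2.51% above and 3.88% below. The 2 members with the clearest counts, named after their values were seen, were Prph2, a structural protein of the outer segment discs, with 2, 2 and 2 reads in Veh and 9, 9 and 11 in GSK, and Pde6b, a subunit of the rod phosphodiesterase, with 1, 2 and 0 against 5, 8 and 8. Single reads decided others, such as Gngt1 with 0, 0 and 0 against 1, 1 and 1. Of the photoreceptor transcription factors, Crx had 0, 1 and 1 reads against 2, 2 and 6, and Nrl 0, 1 and 1 against 6, 1 and 3.

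Lens genes gave 1 call besides Bfsp2. Maf, a transcription factor of lens fibres that T cells also use, had 109, 114 and 115 reads in Veh and 146, 204 and 278 in GSK. Veh was even and GSK replicate 3 high. Its log2 fold change of 0.84 ± 0.20 passed the test (adjusted p = 0.0092) but not without GSK replicate 3 (0.58). The alpha-crystallin gene Cryaa, which defines lens cells, had 1, 0 and 0 reads in Veh and 1, 2 and 2 in GSK. Of 11 lens genes under the filter, 0 had separated groups. Over all 4583 genes under the filter, the shares were 2.75% above and 8.03% below, so nothing is read from this 0.

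Neuronal and developmental lists gave no further call in the direction of the members. Among genes with REST sites, 0 of 14 tested besides Chrm4 were called higher and 2 lower in edgeR and in DESeq2, and 2 of the 14 were higher at an unadjusted p under 0.05 in edgeR. One of these, Nefh, a neurofilament gene named after its values were seen, had 1241, 1612 and 1175 reads in Veh and 2279, 1860 and 2084 in GSK. The groups did not overlap, and its log2 fold change of 0.58 ± 0.15 passed the adjusted p (0.037) but fell just short of the fold of 1.5. Grin1, the obligate subunit of NMDA receptors, had 97, 92 and 106 reads in Veh and 19, 17 and 9 in GSK (log2 fold change -2.75, adjusted p = 1.5e-05). Unc13a, which primes synaptic vesicles, fell from 63.9 to 38.7 CPM (log2 fold change -0.72, adjusted p = 1.7e-04). Besides the members, 0 of 3 tested genes of acetylcholine receptors and synthesis, 0 of 8 calcium channel subunits, 0 of 8 hedgehog genes and 0 of 9 neurotrophic factors and receptors were called either way. At an unadjusted p under 0.05, 6 of these 28 genes passed in edgeR, and DESeq2 called 0 of them. Since edgeR called only 2.22% of all tested genes higher and 4.09% lower, nothing is read from 0 calls among 28. Both the 6 and the 9 of the neurotrophic list include Nutf2 (log2 fold change 0.29, adjusted p = 0.0075). Nutf2 encodes a nuclear transport factor and is not a neurotrophic gene.

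In the Paneth and intestinal list, 2 of 21 tested genes besides the defensins Defa22 and Defa38 rose and 1 fell, with a median log2 fold change of 0.50. The 4 other tested alpha-defensins are among the 21. Lyz1, the lysozyme of Paneth cells, had 60, 57 and 96 reads in Veh and 95, 124 and 117 in GSK. Its groups overlapped and its log2 fold change was 0.61 (adjusted p = 0.038), a call that was lost without any single sample other than Veh replicate 3. Fabp2, the intestinal fatty acid-binding protein, had 81, 59 and 80 against 244, 215 and 94 reads (log2 fold change 1.28, adjusted p = 0.037). That call was lost without any single sample other than GSK replicate 3. Reg3b, a secreted antimicrobial lectin and the most counted gene of the list, named after its values were seen, had 452, 423 and 1126 reads in Veh and 879, 358 and 746 in GSK. Muc2 and Tff3, a goblet cell peptide named after its values were seen, were more even within groups, Tff3 with 22, 28 and 28 reads against 42, 41 and 39 (log2 fold change 0.60, adjusted p = 0.090). Summed over the list with Defa22 and Defa38, the level was 108 to 191 CPM in Veh and 132 to 181 CPM in GSK, and the groups overlapped. Mmp7, a processing enzyme of Paneth cell defensins, had at most 7 reads in any sample. The part of intestinal RNA in the values of Defa22 and Defa38 was not tested. Muc2, the goblet cell mucin, fell from 12.8 to 6.82 CPM (log2 fold change -0.90, adjusted p = 1.5e-04).

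In the iron list, 1 of 14 tested genes besides Erfe rose and 1 fell. Acvr1, a receptor of the BMP pathway that drives hepcidin and that erythroferrone damps, had 31, 47 and 32 reads in Veh and 100, 101 and 107 in GSK (log2 fold change 1.43, adjusted p = 3.1e-04). Hfe, an upstream regulator of hepcidin, fell by 1.37 on the log2 scale (adjusted p = 0.043) from 12, 36 and 15 to 9, 9 and 7 reads. Veh replicate 2 set much of that difference, which was -0.73 and did not pass the test without it. The call was also lost without any one of the GSK replicates. Of 3 other tested genes of the C1q and TNF-related family, to which Erfe belongs, C1qtnf12 fell (log2 fold change -0.71, adjusted p = 0.0081).

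**Figure D4:**
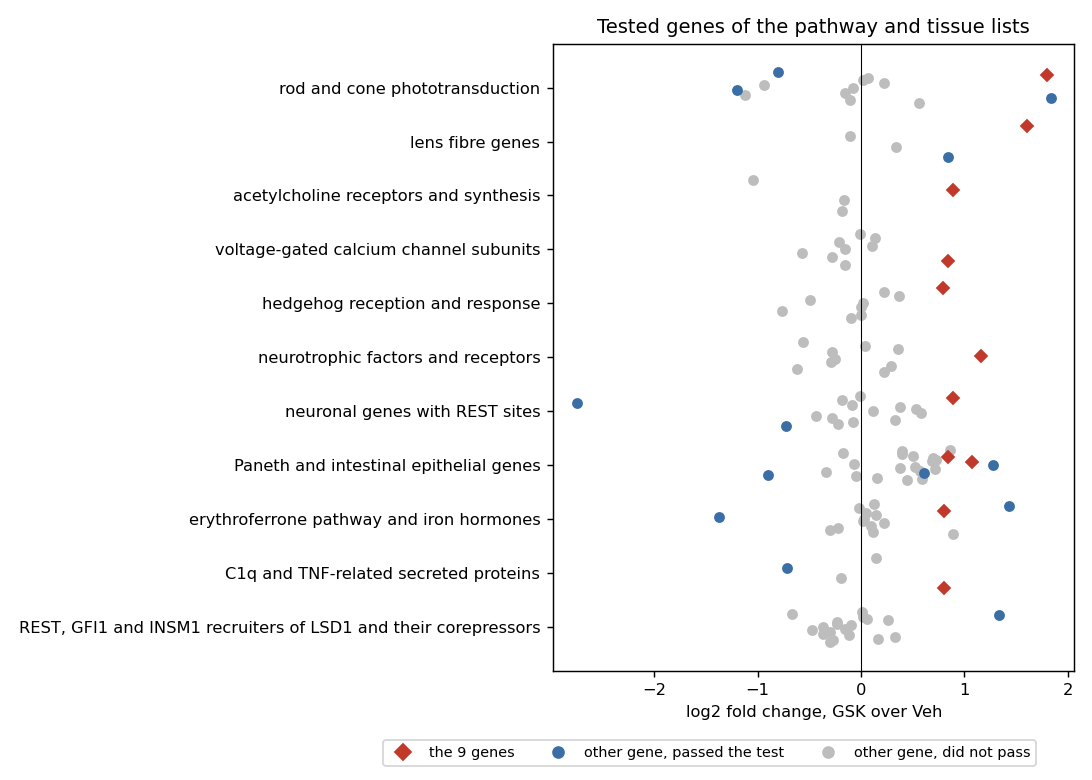
Log2 fold change (GSK over Veh) of each tested gene in the 11 lists, one row per list. Red diamonds are the 9 genes (some in 2 lists), blue points other genes that passed the test and grey points those that did not. Blue points lie on both sides of 0, with the lowest at -2.75 (Grin1).

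Of the recruiters and corepressors of LSD1, 1 of 19 tested genes was called. Gfi1, a repressor that binds LSD1, had 897, 811 and 812 reads in Veh and 2181, 2375 and 2022 in GSK (log2 fold change 1.33 ± 0.07, adjusted p = 6.4e-08). Kdm1a, the gene of the inhibited enzyme, had 1659, 1661 and 1885 against 1645, 1659 and 1744 reads (log2 fold change -0.09, adjusted p = 0.22). As GSK acts on the protein, this transcript does not check the labels. Rest stood at 65.6 ± 5.07 CPM in Veh and 50.8 ± 3.98 in GSK. Its log2 fold change of -0.37 ± 0.07 passed the adjusted p (0.002) but not the fold of 1.5. Rcor1 (log2 fold change -0.15, adjusted p = 0.079) and Rcor2 (-0.48, adjusted p = 0.055), both CoREST family genes, did not pass. Their relative Rcor3, named after its values were seen, passed the adjusted p (0.040) but not the fold (log2 fold change -0.30 ± 0.10).

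Most genes beside the members did not pass the test. Of 33 distinct genes among the nearest 2 on each side, 27 were tested, with a median log2 fold change of 0.027. Of the 27, 3 were called higher and 2 lower, where 2.22% of all tested genes were called higher and 4.09% lower. The difference from these shares was not tested. Besides members, 3 were called higher, namely Tnip3, 37.6 kb from Ndnf (log2 fold change 1.06, adjusted p = 0.0027), Per2, 41.8 kb from Erfe (0.73, adjusted p = 0.011), and Fmnl2, 181 kb from Cacnb4 (1.03, adjusted p = 0.041). The call of Fmnl2 was lost in DESeq2 and without any single sample other than GSK replicate 2. Near Bfsp2, Tmem108 fell (-0.72, adjusted p = 0.0066).

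The promoters of the 9 genes did not share a base composition. RefSeq promoter sequences were at hand for 7 genes, with no entry for Gnat1 or Ndnf, and the 250 bases before an annotated start held from 1 CpG (Cdon, Defa22, Defa38) to 37 (one start of Cacnb4), around a median of 6 over 32851 promoters. For Cdon, Bfsp2 and the Cacnb4 window with 4 CpG, the start in that table lies well inside the gene span given above. These windows are therefore those of an internal start. The promoters of Chrm4 (chr2:91921939-91922188, plus strand, GRCm38.p6) and Defa22 (chr8:21162027-21162276, plus strand) show the range, with CpG in capitals.
Chrm4: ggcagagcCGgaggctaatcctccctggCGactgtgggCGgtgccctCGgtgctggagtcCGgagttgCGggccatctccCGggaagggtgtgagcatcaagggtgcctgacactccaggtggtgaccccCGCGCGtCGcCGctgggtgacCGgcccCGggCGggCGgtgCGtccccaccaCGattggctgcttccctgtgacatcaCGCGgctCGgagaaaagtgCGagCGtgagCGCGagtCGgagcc
Defa22: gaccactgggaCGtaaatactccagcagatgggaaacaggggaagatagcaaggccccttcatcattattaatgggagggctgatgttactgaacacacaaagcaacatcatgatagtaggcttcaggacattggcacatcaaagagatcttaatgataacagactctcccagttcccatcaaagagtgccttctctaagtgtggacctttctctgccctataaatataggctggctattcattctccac
The first holds 26 CpG and 70.0% G and C, the second 1 CpG and 44.8%. Both strands were searched for the letters TTCAGCACC and GGACAGC, the left and right parts of the REST site, and AAATCA, the core of the GFI1 site. None was found in these windows for the 7 genes, and the letters occur in 0.301%, 5.28% and 12.4% of all promoters.

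The samples that decided the calls of the 9 genes differed between them. With 1 sample left out in turn, between 6 and 8 of the 9 remained past both thresholds. Chrm4 and Defa22 were lost without GSK replicate 1, Defa38 without GSK replicate 2, and Bfsp2 and Defa38 without GSK replicate 3. Without Veh replicate 1, Bfsp2, Chrm4 and Defa38 were lost. Without Veh replicate 2, Cacnb4, Defa22 and Defa38 were lost, and without Veh replicate 3, Chrm4 and Cacnb4. Gnat1, Cdon, Ndnf and Erfe were called in each of the 6 fits, and the fold change of every gene stayed above 0. Leaving out 1 sample also leaves fewer samples to estimate the spread.

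**Figure D5:**
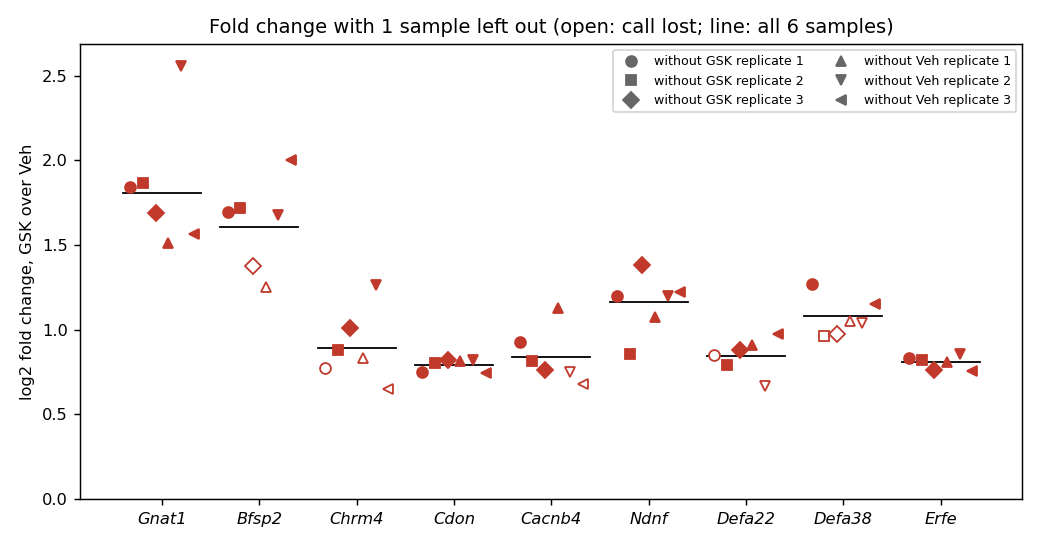
Log2 fold change (GSK over Veh) of each gene with 1 sample left out, one marker shape per sample. Open markers are fits in which the gene was no longer called, and the line gives the value with all 6 samples. Cdon spans 0.74 to 0.82 and Gnat1 1.51 to 2.56.

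For the best-counted genes, the likeness of other tested genes was measured as Pearson's r of log2 CPM over the 6 samples, as a description. Plch1, Ndfip2 and Ctsz were most like Cdon and Gadd45g, Taf4b and Rmdn3 most like Erfe, all with r above 0.99. With 2 separated groups of 3 samples such values arise for many genes. Plch1 went from 5.84 to 12.2 CPM and Gadd45g from 24.2 to 53.5 CPM.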

How the data were processed

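Poly(A)-enriched RNA of 3 GSK and 3 Veh cultures was sequenced as 150 bp paired ends. The authors trimmed the reads with Trimmomatic, aligned them to GRCm38 with HISAT2 (2.1.0) and deposited raw read counts per gene from HTSeq (0.11.2). They also used Cufflinks (2.2.1) and DESeq2 (1.22.2), per the submitters' processing notes. The annotation release and the strand setting of the counting are not given in the sources used here.

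The robust quasi-likelihood test of edgeR (4.0.16, in R 4.3.3) was applied to these counts after TMM scaling and filterByExpr, with Benjamini-Hochberg adjustment over 11698 genes. A call needed an adjusted p below 0.05 and a change of more than 1.5-fold, and SEs were derived from the test statistic. Every adjusted p given for a gene comes from this fit. The script was tested on simulated data. Thinning drew reads at random to the smallest total, 18288447. Coordinates and promoters are from RefSeq tables (GRCm38.p6), and exons and transcripts from GENCODE M21. Coding sequences were aligned with Biopython (1.88), and permutation tests used SciPy (1.17.1). The total counts, 18288447 to 19846720, set the precision, so a gene with few reads carries a wide error.

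The members and lists were chosen with earlier results of these data known. Genes named were the 9 members, up to 4 called genes per list, called genes among the nearest 2 neighbours on each side, Kdm1a, Rest, Rcor1, Rcor2, Gfi1, relatives of members, and the 3 genes most like each of the 2 most counted members, Cdon and Erfe. Motifs, single markers and genes under the filter were named after values were seen. Alternatives were RLE size factors, DESeq2 (1.42.0), no filter, a mean count of at least 10, a replicate block, a prior count of 2 in place of 0.125, thinning, and leaving out each sample. That samples of one group are separate mice rests on the study's text. A few genes that this rule names are not reported here.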

Additional observations from a re-analysis of the deposited data

How the results depend on the processing

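All 9 members were called higher with RLE size factors, DESeq2, no filter and a mean count of at least 10. The replicate block and a prior count of 2 also called all 9. The log2 fold changes of the 9 kept their sign under all 12 alternatives. The same samples chose these genes, so the repeated calls are no independent support for a rise. Leaving out 1 sample at a time gave 6 to 8 called members, and moved the log2 fold change of Gnat1 by more than its replicate spread without Veh replicate 2 (2.56). Over the same fits, 224 to 291 genes were called higher and 403 to 547 lower, against 260 and 479, and 4 to 9 list genes were called higher, against 6.

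Under the filter, leaving out 1 sample gave 183 to 288 genes with all GSK above all Veh and 487 to 640 with all below, against 126 and 368, since fewer samples need to separate. Thinned to the smallest total, 178 lay below in place of 368, and 115 above. The same thinning, chosen for the lists after seeing the data, left 10 of their 12 genes under the filter with GSK above. Equal counts give lower CPM in GSK, whose totals are higher.

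Groups share the replicate numbers 1 to 3, but deviations from the group means correlated at -0.052, -0.11 and 0.19 for the same number, so the numbers were not taken to pair the samples. With the replicate block, 253 genes were called higher and 447 lower, and Hfe and Fmnl2 lost their calls. At 3 samples a group, an exact permutation test of a single value cannot give a p below 0.1.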

Other observations

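Among the 4583 genes under the filter, the number detected after thinning to 18288447 reads was 2763 ± 13.4 in Veh and 2601 ± 150 in GSK (SD, n = 3), and a two-sided exact permutation test gave p = 0.3. The smallest p that this design allows is 0.1. The markers of CD4 and regulatory T cells included Cd40lg, which rose from 4, 15 and 6 to 29, 24 and 22 reads, and Ikzf2, which fell from 455, 506 and 555 to 357, 334 and 270. The NK and innate-like list summed to between 196 and 216 CPM in Veh and 422 and 457 CPM in GSK, nearly all of it from Eomes (204 to 433 CPM), which CD8+ T cells also express.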
